A study of Mus musculus with 6 samples.

Results

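Rest-inserted flow was set against continuous flow in MC3T3-E1 osteoblastic cells harvested immediately after the 1 h regimen ended. MC3T3-E1 is an established mouse line of bone-forming (osteoblastic) cells. The array of cells under rest-inserted flow (RF0), in which 5 min of orbital flow followed by 10 min of rest was repeated 4 times, was compared with the array of cells that had 1 h of uninterrupted flow (CF0). The 4 other arrays of the series, no flow at the same time (NF0) and rest-inserted, continuous and no flow 1 h later (RF1, CF1 and NF1), were used for comparison. Each of the 6 arrays held RNA pooled from 3 experiments and no condition had a second array, so the differences below have no replicate check and no test was made. By design RF0 cells had 20 min of flow in the hour and CF0 cells had 60 min, and RF0 cells were at rest for the last 10 min before harvest, so that total flow, its pattern and the time since flow last acted cannot be told apart. All cells were 1 subclone of the line, shaken in wells, in which shear stress is not uniform.

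Of 8565 named genes of the log2 intensity table, 4388 had a mean log2 intensity above 7 over the 6 arrays and were taken as the genes to describe, with the brightest probe standing for each gene. All 4388 had a detection p-value under 0.01 on both arrays. The genes just inside the filter were Haus6 and Dus4l, with a mean log2 intensity of 7.001 each and log2 differences of -0.07 and -0.08, and those just outside were Cript and Snrk, at 6.999 and 6.997, with -0.01 and -0.06. All log2 differences are rest-inserted minus continuous flow, so a negative value means a lower level in RF0.

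Fluid shear is known to act on bone cells through integrins, ion channels and the actin cytoskeleton. Within minutes it activates MAP kinases and calcium signals and induces immediate early genes, whose transcription needs no new protein and whose transcripts are short-lived. Actin tension also releases the cofactors of serum response factor (SRF) and the TEAD partner YAP, which induce secreted matricellular proteins and cytoskeletal genes, and MAP kinase signaling induces its own inhibitors, such as the dual-specificity phosphatases.

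Ccn2, a gene of this kind, had the largest difference between the flow regimens and was lower in RF0 than in CF0. Of the 15 genes with the lowest log2 differences 6 were in the lists of early, MAP kinase feedback, YAP and SRF genes. The other 9, Cd80 and Tgfb3 among them, were not. These lists held 57 of the 4388 genes. They were chosen with earlier results of these data known, and the 15 genes were picked by the differences themselves. The overlap is therefore a description and no independent evidence. Of 4388 genes, 0 (0%) had a log2 difference of at least 0.5 (1.41-fold) in favor of rest-inserted flow, and 4 (0.0912%) had one of at least 0.5 in favor of continuous flow, which were Ccn2, Cd80, Ankrd1 and Dusp1. At a smaller size of 0.25 (1.19-fold), chosen after the data were seen, 70 genes (1.6%) were higher and 81 (1.85%) were lower in RF0. The lowest log2 difference was -0.85 and the highest 0.47, with a median of 0.00 over all genes and a median absolute difference of 0.07. At 1 h the same comparison ranged between -0.52 and 0.54. In RNA of whole cultures, fewer cells that express a gene and less of its RNA per cell cannot be told apart.

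**Figure D1:**
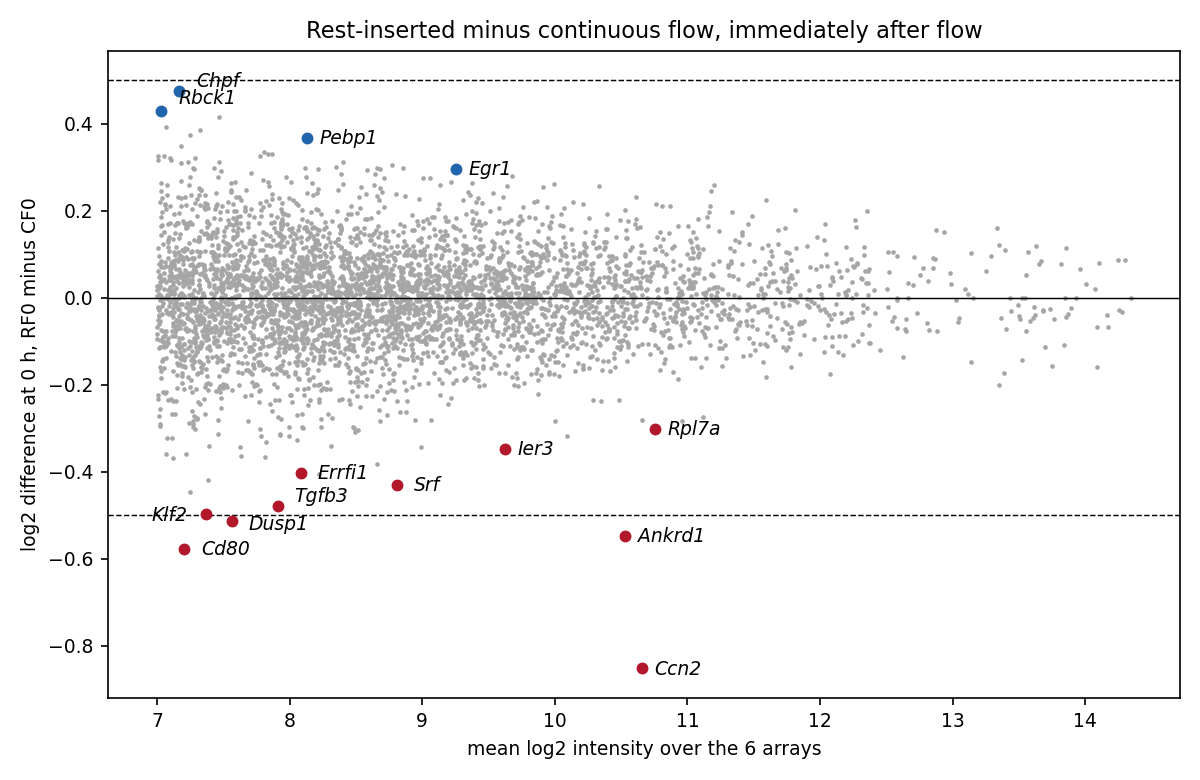
Log2 difference at 0 h (RF0 minus CF0, vertical axis) against the mean log2 intensity over the 6 arrays (horizontal axis) for 4388 genes, with dashed lines at 0.5 and -0.5 and colored points for named genes (red lower, blue higher in RF0). Ccn2 at -0.85 and Ankrd1 at -0.55 lie far below the other genes of their brightness, whereas Cd80 and Dusp1 lie where the points are more widely scattered.

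The array pair RF0 and CF0 was among the most alike of the series. The SD over genes of its log2 difference was 0.113, against 0.114 for RF1 and CF1, 0.133 for RF0 and NF0 and 0.14 for CF0 and NF0. Of the 15 pairs of arrays, the pair of RF1 and NF1 alone had a smaller SD, 0.112, and the widest were RF0 and CF1 and CF0 and CF1, at 0.169 each. The spread also depended on brightness, with an SD of 0.134 over the 1314 genes with a mean log2 intensity between 7 and 8 and of 0.084 over the 434 genes at 11 or above. The 945 genes at 10 or above included 2 that were higher and 7 that were lower by 0.25 or more in RF0. Both are smaller shares than the 1.6% and 1.85% of all genes.

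**Figure D2:**
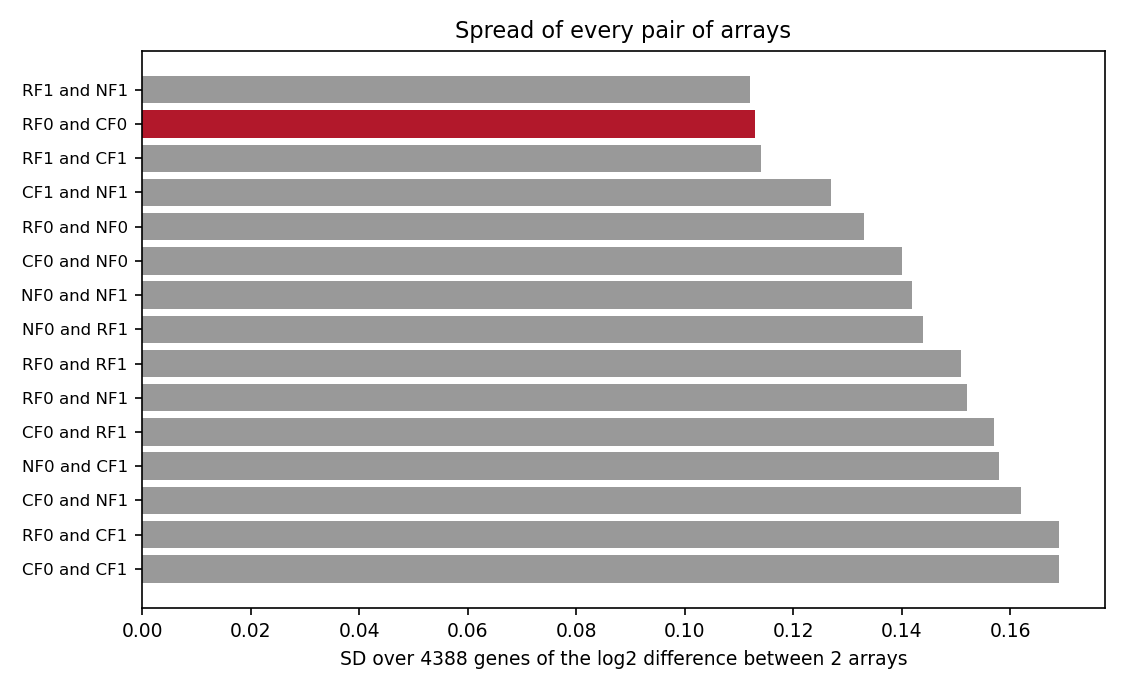
SD over 4388 genes of the log2 difference (horizontal axis) for each of the 15 pairs of arrays, the pair of rest-inserted and continuous flow at 0 h in red. The red bar, 0.113, is the second shortest.

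Ccn2 encodes connective tissue growth factor, a secreted matricellular protein induced by YAP, SRF and TGF-beta. Its log2 intensity was 11.05 in RF0, 11.90 in CF0 and 10.04 in NF0. RF0 thus stood between the other arrays of that time, 1.01 above NF0, whereas CF0 stood 1.86 above NF0. The log2 difference of -0.85 (CF0 1.81-fold above RF0) was 8.44 times the SD of genes of like brightness. In background-subtracted signal before normalization Ccn2 had 2140 in RF0, 3920 in CF0 and 1050 in NF0. At 1 h the log2 intensity of Ccn2 was 10.34 in RF1, 10.48 in CF1 and 10.13 in NF1. A second Ccn2 probe gave a log2 difference of -0.83 at 0 h, with 9.86 in RF0, 10.69 in CF0 and 8.98 in NF0.

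Ankrd1, an ankyrin repeat protein of muscle and a target of YAP, followed the same order. It had a log2 intensity of 11.09 in RF0, 11.64 in CF0 and 10.44 in NF0. The log2 difference was -0.55 (CF0 1.46-fold above RF0), or 5.42 times the SD of genes of like brightness. Its second probe gave -0.51, with 8.95 in RF0 and 9.45 in CF0. At 1 h the levels were 9.83 in RF1, 10.04 in CF1 and 10.15 in NF1, so both flow arrays had come to lie below the array without flow. Ccn1, the matricellular relative of Ccn2 and likewise a target of YAP and SRF, had 9.18 in RF0, 9.41 in CF0 and 8.39 in NF0. Its log2 difference of -0.23 was smaller than those of Ccn2 and Ankrd1, and its other probe above the filter gave -0.40.

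Srf, the transcription factor that drives many of these genes and its own, had a log2 intensity of 9.12 in RF0, 9.55 in CF0 and 8.74 in NF0. The log2 difference was -0.43 at 0 h. At 1 h it was 0.21, with 8.59 in RF1, 8.37 in CF1 and 8.48 in NF1. Fhl2, a LIM protein that acts as a cofactor of SRF, had 8.46 in RF0, 8.73 in CF0 and 8.24 in NF0, a log2 difference of -0.28. Tpm2, a tropomyosin of the actin filament, ran the other way, with 11.32 in RF0, 11.08 in CF0 and 11.27 in NF0 and a log2 difference of 0.25. In the list of YAP and SRF targets, 24 of 42 genes were measured above the filter. Of these, 4 were lower and 0 were higher by 0.25 or more, against 1.85% and 1.6% of all genes. The list median was -0.03, against 0.00 over all genes, so the typical member hardly differed. Zyx, Vcl, Myl9 and the other cytoskeletal members lay between the extremes of Ccn2 and Tpm2, for example Zyx, an adhesion plaque protein, at 13.21 in RF0, 13.35 in CF0 and 13.02 in NF0.

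The bases just upstream of these genes show which of the known response elements are at hand. The RefSeq promoters on GRCm38.p6, 250 bases ending at the transcription start, were searched on both strands for the TEAD motif (GGAATG), the CArG box bound by SRF, the cAMP response element or CRE (TGACGTCA), its half-site TGACG, which the whole CRE contains, and the AP-1 motif (TGANTCA). Of 32851 promoters, 12.6% held a TEAD motif, 1.47% a CArG box, 1.55% a CRE, 17.8% a CRE half-site and 6.75% an AP-1 motif. Among the 3645 genes above the filter that have a promoter there, 12.5% held a TEAD motif, 1.67% a CArG box and 3.51% a CRE. A CRE half-site was held by 33.7% and an AP-1 motif by 4.75%. These are shares of genes, whereas the former are shares of promoters, which belong to 27025 genes, so the 2 sets of shares cannot be compared directly. The early genes held a CRE half-site about as often as the genes above the filter, at 34.7%. Ankrd1, Srf, Ccn1 and Dusp1 are shown, as genes among those lower in RF0 whose windows hold such elements, in capitals, and a match is a description of the letters alone. The windows are chr19:36119845-36120094 for Ankrd1, chr17:46556163-46556412 for Srf, chr3:145649986-145650235 for Ccn1 and chr17:26508473-26508722 for Dusp1, all on the minus strand.
Ankrd1: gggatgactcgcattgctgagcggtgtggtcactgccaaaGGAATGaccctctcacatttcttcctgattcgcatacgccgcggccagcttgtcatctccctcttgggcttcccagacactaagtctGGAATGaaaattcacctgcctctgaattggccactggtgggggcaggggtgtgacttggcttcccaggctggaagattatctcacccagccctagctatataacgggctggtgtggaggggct
Srf: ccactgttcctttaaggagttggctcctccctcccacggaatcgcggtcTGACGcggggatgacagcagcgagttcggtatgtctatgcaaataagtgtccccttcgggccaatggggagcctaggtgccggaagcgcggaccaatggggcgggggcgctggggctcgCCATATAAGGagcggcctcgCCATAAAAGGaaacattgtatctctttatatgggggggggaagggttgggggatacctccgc
Ccn1: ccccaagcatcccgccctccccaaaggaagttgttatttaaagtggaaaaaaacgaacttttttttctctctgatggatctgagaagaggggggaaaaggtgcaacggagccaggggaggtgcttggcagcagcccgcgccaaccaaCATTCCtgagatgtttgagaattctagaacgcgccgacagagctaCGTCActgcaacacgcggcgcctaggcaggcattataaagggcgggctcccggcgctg
Dusp1: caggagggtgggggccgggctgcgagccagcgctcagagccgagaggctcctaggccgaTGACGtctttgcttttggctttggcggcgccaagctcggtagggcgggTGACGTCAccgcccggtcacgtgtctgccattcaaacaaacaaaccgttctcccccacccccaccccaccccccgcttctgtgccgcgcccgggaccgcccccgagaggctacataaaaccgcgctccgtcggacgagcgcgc
The Ankrd1 window holds 2 TEAD motifs, starting 210 and 123 bases before the start of transcription. The Srf window holds 2 CArG boxes, at 82 and 62 bases, and a CRE half-site at 201. The Ccn1 window holds a TEAD motif at 103 bases, on the opposite strand, and a CRE half-site at 58. The Dusp1 window holds a CRE at 143 bases and a further half-site at 191. The window of Ier3, also lower in RF0 and not shown, holds 0 of these motifs. Ccn2, the gene with the largest difference, has no promoter in this set and was not searched. Of the 15 genes lowest in RF0, 12 have a promoter in the table. Of these, 4 held a TEAD motif, 2 a CRE, 7 a CRE half-site, 1 a CArG box and 1 an AP-1 motif. Among 12 of the 15 highest, 1, 1, 5, 0 and 0 did. With 12 genes a set, these counts are a description alone. Counted over the 4 lists of immediate early, MAP kinase feedback, YAP and SRF genes, 8 of 49 genes with a promoter (16.3%) held a CArG box, against 61 of 3645 (1.67%) of the genes above the filter. These lists were chosen in part for known SRF targets, so that share follows from the choice.

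Some genes of the list of MAP kinase feedback regulators were also lower in RF0. Dusp1, a dual-specificity phosphatase whose substrates are p38, JNK and ERK, had a log2 intensity of 8.02 in RF0, 8.53 in CF0 and 7.45 in NF0. Its log2 difference was -0.51 (CF0 1.43-fold above RF0), or 3.84 times the SD of genes of like brightness. At 1 h it had 7.03 in RF1, 7.13 in CF1 and 7.24 in NF1, all below every array of 0 h. Errfi1, an inhibitor of the EGF receptor, had 8.44 in RF0, 8.85 in CF0 and 8.25 in NF0, a log2 difference of -0.40. Ier3, an early gene that acts on ERK signaling and survival, had 9.86 in RF0, 10.21 in CF0 and 9.58 in NF0, a log2 difference of -0.35. In all 3 genes RF0 was above NF0 and CF0 was above RF0. Dusp7, a phosphatase specific for ERK, had 8.56 in RF0, 8.36 in CF0 and 8.53 in NF0, a difference of 0.21 in the other direction. Of 26 feedback regulators, 9 were above the filter. Of these, 3 were lower and 0 were higher by 0.25 or more, against 1.85% and 1.6% of all genes. Their median was -0.06. It was -0.17 when all probes of a gene were averaged, which left 8 genes above the filter.

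Among immediate early transcription factors the direction differed between genes. Klf2, a zinc finger factor that laminar shear induces in endothelium, had a log2 intensity of 7.76 in RF0, 8.25 in CF0 and 6.72 in NF0. Its log2 difference of -0.50 was just short of the size of 0.5, and both flow arrays were more than 1 log2 unit above NF0. Klf4, a relative of Klf2, had 7.08 in RF0, 7.42 in CF0 and 7.17 in NF0, a log2 difference of -0.34, and here RF0 was the lowest of the time. At 1 h Klf4 had 7.53 in RF1, 7.88 in CF1 and 7.28 in NF1, a difference of -0.35. Fosl2, a member of the AP-1 family, had 9.56 in RF0, 9.74 in CF0 and 9.19 in NF0, a log2 difference of -0.19.

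Egr1, a zinc finger factor induced by ERK and SRF, was the member of these lists with the highest log2 difference, 0.30. Its log2 intensity was 9.57 in RF0, 9.27 in CF0 and 9.31 in NF0, so the continuous flow array did not stand above the array without flow. At 1 h it was 8.95 in RF1, 9.09 in CF1 and 9.32 in NF1. Egr2, its relative, differed by 0.01 between RF0 and CF0, and both arrays were above NF0, by 0.48 and 0.46. Of 34 listed immediate early transcription factors, 11 were above the filter. Of these, 3 were lower and 1 was higher by 0.25 or more, against 1.85% and 1.6% of all genes. The median of the list was -0.04. It was 0.01 when all probes of a gene were averaged, which left 9 genes above the filter.

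Immediate early genes that are not transcription factors were lower in RF0 in 14 of 19 members above the filter, against 49.4% of all genes, with a median of -0.10 and 3 members lower by 0.25 or more. Mcl1, a survival protein of the BCL2 family, had 8.76 in RF0, 8.94 in CF0 and 8.61 in NF0. Counting each gene of the 4 lists once, 57 genes were above the filter, 36 of them lower in RF0, again against 49.4% of all genes. Of these, 9 (15.8%) were lower by 0.25 or more, against 1.85% of all genes, and 1, Egr1, was higher, against 1.6%. These 9 made up 11.1% of all genes lower by that much. The lists were chosen with earlier results of these data known, and the size of 0.25 after the data were seen. The contrast with all genes is therefore a description and no independent evidence. At 1 h 4 of the 57 were lower and 0 were higher by 0.25 or more, against 1.82% and 1.71% of all genes. Against NF0, 47 of the 57 were higher in RF0 and 45 in CF0, and 5 and 11 were so by 0.5 or more, counts that share the array NF0.

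**Figure D3:**
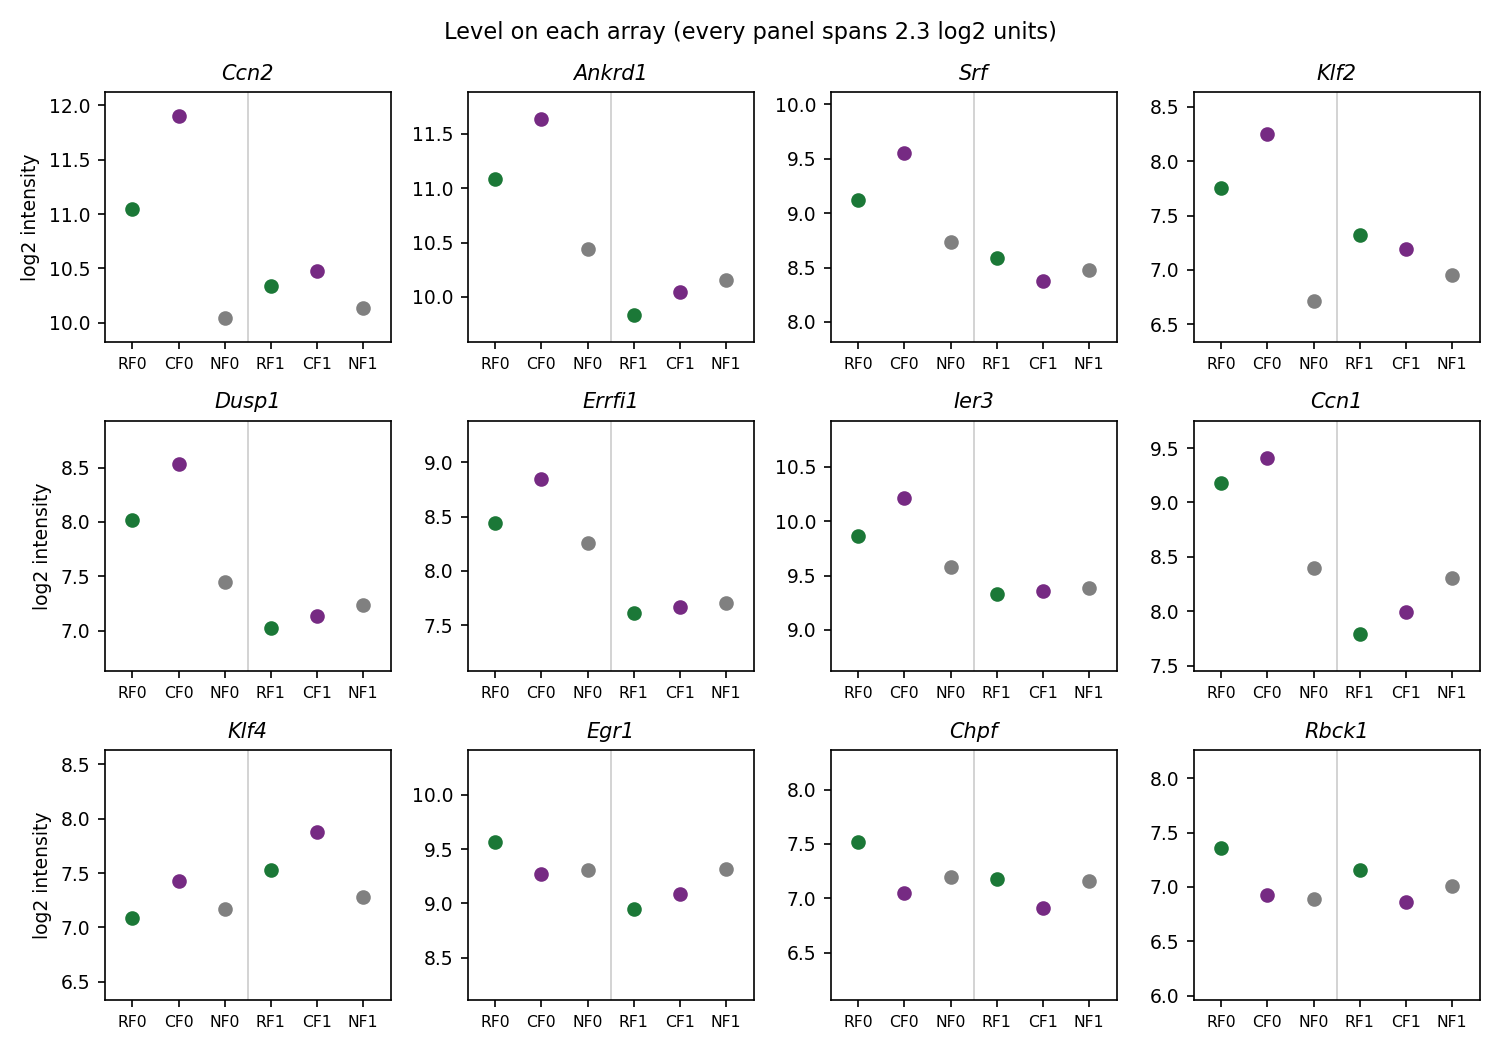
Log2 intensity (vertical axis) on each of the 6 arrays (rest-inserted green, continuous purple, no flow grey, 0 h left and 1 h right of the line) for 12 genes, 1 point an array, every panel spanning 2.3 log2 units. In Ccn2, Ankrd1, Srf, Klf2, Dusp1, Errfi1, Ier3 and Ccn1 the RF0 point lies between CF0 above and NF0 below, whereas in Egr1, Chpf and Rbck1 RF0 is the highest array.

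Early genes below the filter, whose values scatter more, held differences in both directions. Of 40 genes of the 4 lists at or below it, 5 were lower and 2 were higher in RF0 by 0.5 or more. Jun, the AP-1 subunit, had a log2 intensity of 7.37 in RF0, 7.89 in CF0 and 6.72 in NF0, a log2 difference of -0.52, and missed the filter with a mean of 6.91. Egr3 had 6.50 in RF0, 7.20 in CF0 and 5.54 in NF0, a difference of -0.71. The 2 higher ones were Nt5e, which had 4.30 in RF0, with CF0 at the signal floor of 3.32, and Jund, with 5.23 in RF0 and 4.72 in CF0. Junb had 6.99 in RF0 and 6.99 in CF0, and Fos, the partner of Jun, had 5.78 in RF0 and 5.73 in CF0, with 5.46 in NF0. These 6 genes were chosen after their values were seen. Of all 4177 named genes below the filter, 5.41% were higher and 6.39% lower in RF0 by 0.5 or more, with an SD of 0.331, so differences of this size are common there.

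The other genes at the low end were mostly dim and belonged to no common list. Cd80, a ligand of T cell receptors of the CD28 family, had a log2 intensity of 7.04 in RF0, 7.62 in CF0 and 7.17 in NF0, a log2 difference of -0.58. CF0 alone stood apart, since the 3 arrays of 1 h lay between 7.12 and 7.15. Tgfb3, a TGF-beta ligand, had 7.77 in RF0, 8.25 in CF0 and 7.81 in NF0, a difference of -0.48, and likewise RF0 lay close to NF0. Retreg2, of a family of endoplasmic reticulum autophagy receptors, differed by -0.45 with 6.95 in RF0 and 7.40 in CF0. Glis3, a zinc finger factor, differed by -0.42, and Rfc5, a subunit of the clamp loader of DNA replication, by -0.40. Fam91a1, Lyar, Bex2 and Pls3, an actin-bundling plastin, completed the 15 lowest genes, with differences between -0.38 and -0.36. Of the 15, 6 had the order CF0, RF0, NF0, 7 had RF0 lowest with CF0 above NF0, and 2 had NF0 above both. The choice of genes, which used RF0 and CF0, fixed CF0 above RF0 and favors a high CF0 or a low RF0.

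The 15 genes highest in RF0 had a median mean log2 intensity of 7.29, against 7.82 for the 15 lowest, and their differences were between 0.32 and 0.47. Chpf, a factor of chondroitin polymerization, had a log2 intensity of 7.52 in RF0, 7.04 in CF0 and 7.20 in NF0, a log2 difference of 0.47 (1.39-fold). At 1 h it had 7.18 in RF1, 6.91 in CF1 and 7.16 in NF1, a difference of 0.27. Rbck1, a subunit of the ligase that builds linear ubiquitin chains, had 7.36 in RF0, 6.93 in CF0 and 6.89 in NF0, a difference of 0.43, and one of 0.29 at 1 h. Siah1a, a ubiquitin ligase, had 7.23 in RF0, 6.83 in CF0 and 7.05 in NF0, a difference of 0.39, and one of 0.25 at 1 h. These 3 were thus higher with rest-inserted flow at both times.

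Cgnl1, a protein of cell junctions, and Nudt1, which removes oxidized nucleotides, differed by 0.41 and 0.38. Pebp1, an inhibitor of RAF kinase and hence of the ERK cascade, had 8.35 in RF0, 7.98 in CF0 and 8.07 in NF0, a log2 difference of 0.37, and was the 1 gene of the 15 highest with a mean log2 intensity above 8. Mapk8ip1, a scaffold of the JNK cascade, had 7.90 in RF0, 7.58 in CF0 and 7.85 in NF0, a difference of 0.32. Pisd-ps3, a pseudogene whose probe may also bind the transcript of its parent gene, Irf2bp1, a corepressor, Ciapin1, which acts in iron-sulfur cluster assembly, Rpap1, a partner of RNA polymerase II, Slc6a9, a glycine transporter, and Mxra7, Them6 and Cc2d1b made up the rest, between 0.32 and 0.37. In 12 of the 15 the order was RF0, NF0, CF0, an order that the choice of genes, which used CF0, favors. No early, feedback, YAP or SRF gene was among them, and such genes made up 57 of the 4388.

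The 15 lowest and the 15 highest genes of 0 h were looked up again at 1 h, on arrays that share no hybridization with those of 0 h. Of the 15 lowest, 12 were again below and 3 above 0, with a median log2 difference of -0.04 and a range between -0.22 and 0.21. Of the 15 highest, 9 were again above and 6 below 0, with a median of 0.01. Of the 81 genes lower by 0.25 or more at 0 h, 48 were on the same side at 1 h and 3 were again lower by that much, namely Rcan1, Klf4 and Kntc1. Of the 70 higher ones, 44 were on the same side and 7 were again higher by that much, among them Chpf, Rbck1 and Siah1a. For all 4388 genes at 1 h, 48.4% were below and 51.2% above 0, and 1.82% were lower and 1.71% higher by 0.25 or more. Across all 4388 genes the differences of the 2 times had a Pearson correlation of 0.0662, given as a description. At 1 h, 2 genes (0.0456%) were at least 0.5 higher, Zdhhc5 and Zbtb22, and 1 (0.0228%) at least 0.5 lower, Psmd11, and these were named after their values were seen. None of the 4 genes past 0.5 at 0 h was among them.

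**Figure D4:**
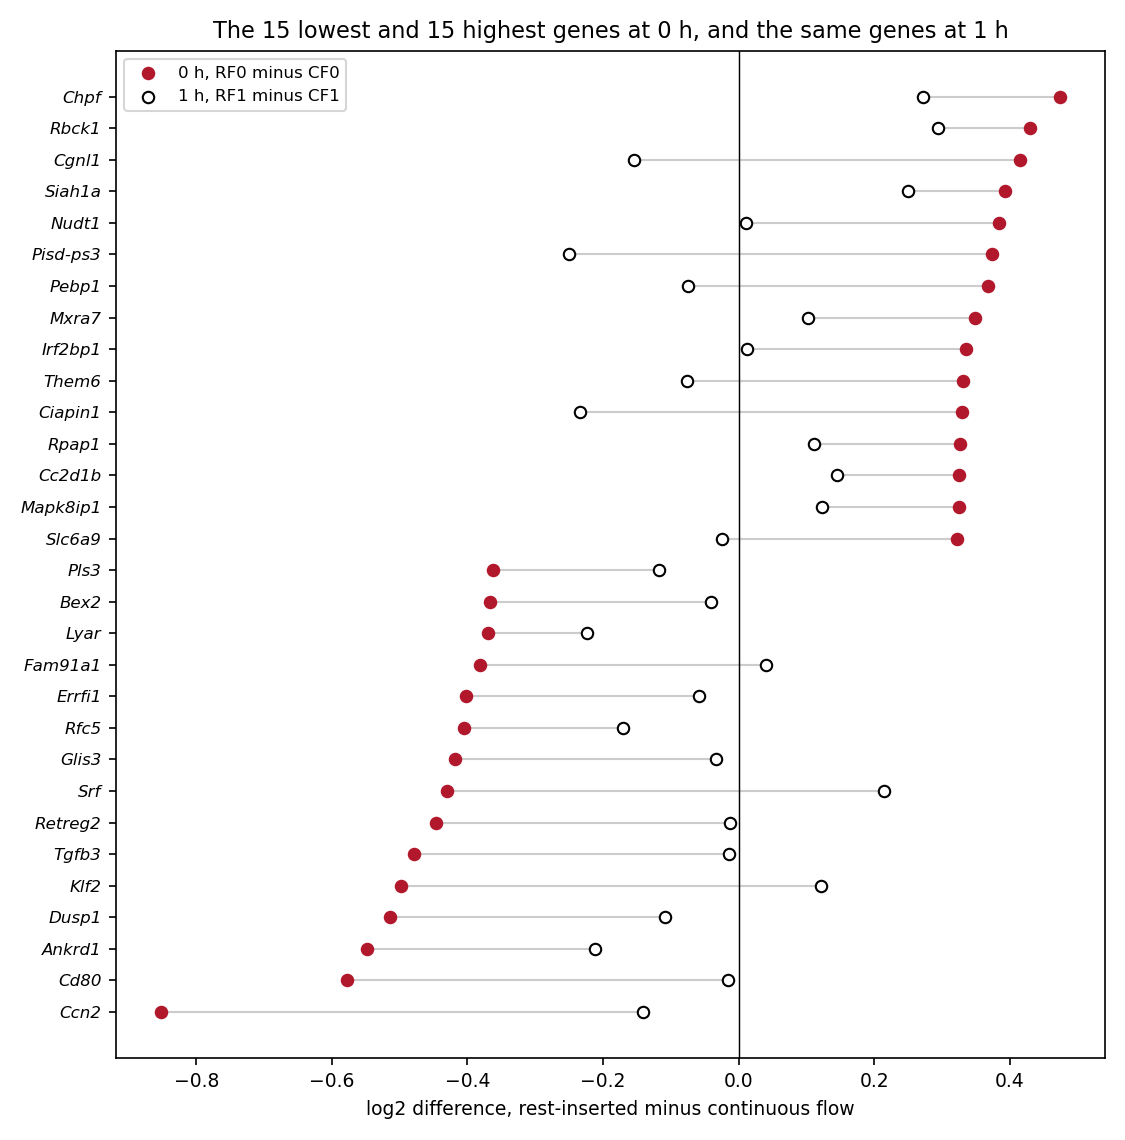
Log2 difference (horizontal axis) at 0 h (RF0 minus CF0, red) and at 1 h (RF1 minus CF1, open) for the 15 lowest and 15 highest genes of 0 h, 1 row a gene. The open points gather near 0, between -0.25 and 0.29, and Ccn2 is at -0.85 and -0.14.

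Cascade kinases differed little. Of 62 listed members of the MAP kinase cascades 19 were above the filter, with a median log2 difference of 0.06. The one past 0.25 was Mapk14, which encodes p38 alpha, with 8.03 in RF0, 8.32 in CF0 and 7.94 in NF0, a difference of -0.30. Of the calcium, NFAT and cAMP responsive genes, Rcan1, an inhibitor of calcineurin induced by NFAT, had 7.54 in RF0, 7.88 in CF0 and 7.40 in NF0, a difference of -0.34, and -0.30 at 1 h. Rgs4, which switches off G protein signals, had 7.44 in RF0, 7.14 in CF0 and 7.56 in NF0, a difference of 0.30. Ppp3ca, a catalytic subunit of calcineurin, had 10.81 in RF0, 10.58 in CF0 and 10.62 in NF0, a difference of 0.23. That list of 15 genes above the filter thus held differences in both directions. By 0.25 or more, 2 were lower and 1 was higher, against 1.85% and 1.6% of all genes.

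Matrix and stress genes gave a few more. Of 25 collagens and matrix proteins, 2 were higher by 0.25 or more and 0 were lower, against 1.6% and 1.85% of all genes. They were Emilin1, an elastic fiber protein, with 8.31 in RF0, 8.01 in CF0 and 8.15 in NF0, and Matn4, a matrilin, with 8.57 in RF0, 8.30 in CF0 and 8.59 in NF0. Of the matrix processing enzymes and inhibitors, 19 of 26 were higher in RF0, against 50.1% of all genes, with a median log2 difference of 0.04 and none past 0.25. The range of that median over the processing alternatives, which reuse the same 2 arrays, was between 0.03 and 0.05. At 1 h the median of the list was -0.02. Loxl1, which crosslinks elastin, had 9.84 in RF0, 9.63 in CF0 and 9.63 in NF0.

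Of 28 heat shock genes and chaperones, 21 were lower in RF0, against 49.4% of all genes, with a median of -0.03. Cryab, a small heat shock protein, had 9.96 in RF0, 10.24 in CF0 and 9.93 in NF0, a log2 difference of -0.28, and was the only one of that list past 0.25. In the list of the unfolded protein and amino acid response, Hsp90b1, a chaperone of the endoplasmic reticulum, had 11.30 in RF0, 11.04 in CF0 and 11.30 in NF0, a difference of 0.26, the 1 gene of 30 past 0.25. Mafg, a small MAF factor that pairs with NRF2, had 8.45 in RF0, 8.76 in CF0 and 8.42 in NF0, a difference of -0.31. Cav1, the coat protein of caveolae, had 10.42 in RF0, 10.70 in CF0 and 10.69 in NF0, a difference of -0.28 in which RF0 was the array that stood apart.

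The remaining lists held at most 1 gene past 0.25 in either direction. Sfrp2, a secreted modulator of Wnt signals, had 7.20 in RF0, 7.56 in CF0 and 7.58 in NF0, and Scd2, a fatty acid desaturase, had 7.71 in RF0, 8.03 in CF0 and 7.99 in NF0. Rpl7a, of the large ribosomal subunit, had 10.41 in RF0, 10.71 in CF0 and 10.95 in NF0, whereas the 45 ribosomal protein genes had a median of -0.03. In glycolysis and hypoxia genes, Pfkm, a phosphofructokinase, had 9.37 in RF0, 9.11 in CF0 and 9.11 in NF0. Other Pfkm probes, below the filter, gave log2 differences of -0.15 and -0.05, and under the processing alternatives that of Pfkm fell as low as 0.02. Bnip3l, a mitophagy receptor, had 8.22 in RF0, 8.49 in CF0 and 8.48 in NF0. Bub1b, a kinase of the mitotic checkpoint, had 9.17 in RF0, 8.90 in CF0 and 9.12 in NF0. In the lists of TNF and NF-kB targets, cytokines and their receptors, interferon-stimulated genes, osteoblast genes, homeobox and patterning factors, oxidative phosphorylation, ion channels and clock genes 0 members were past 0.25 in either direction.

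**Figure D5:**
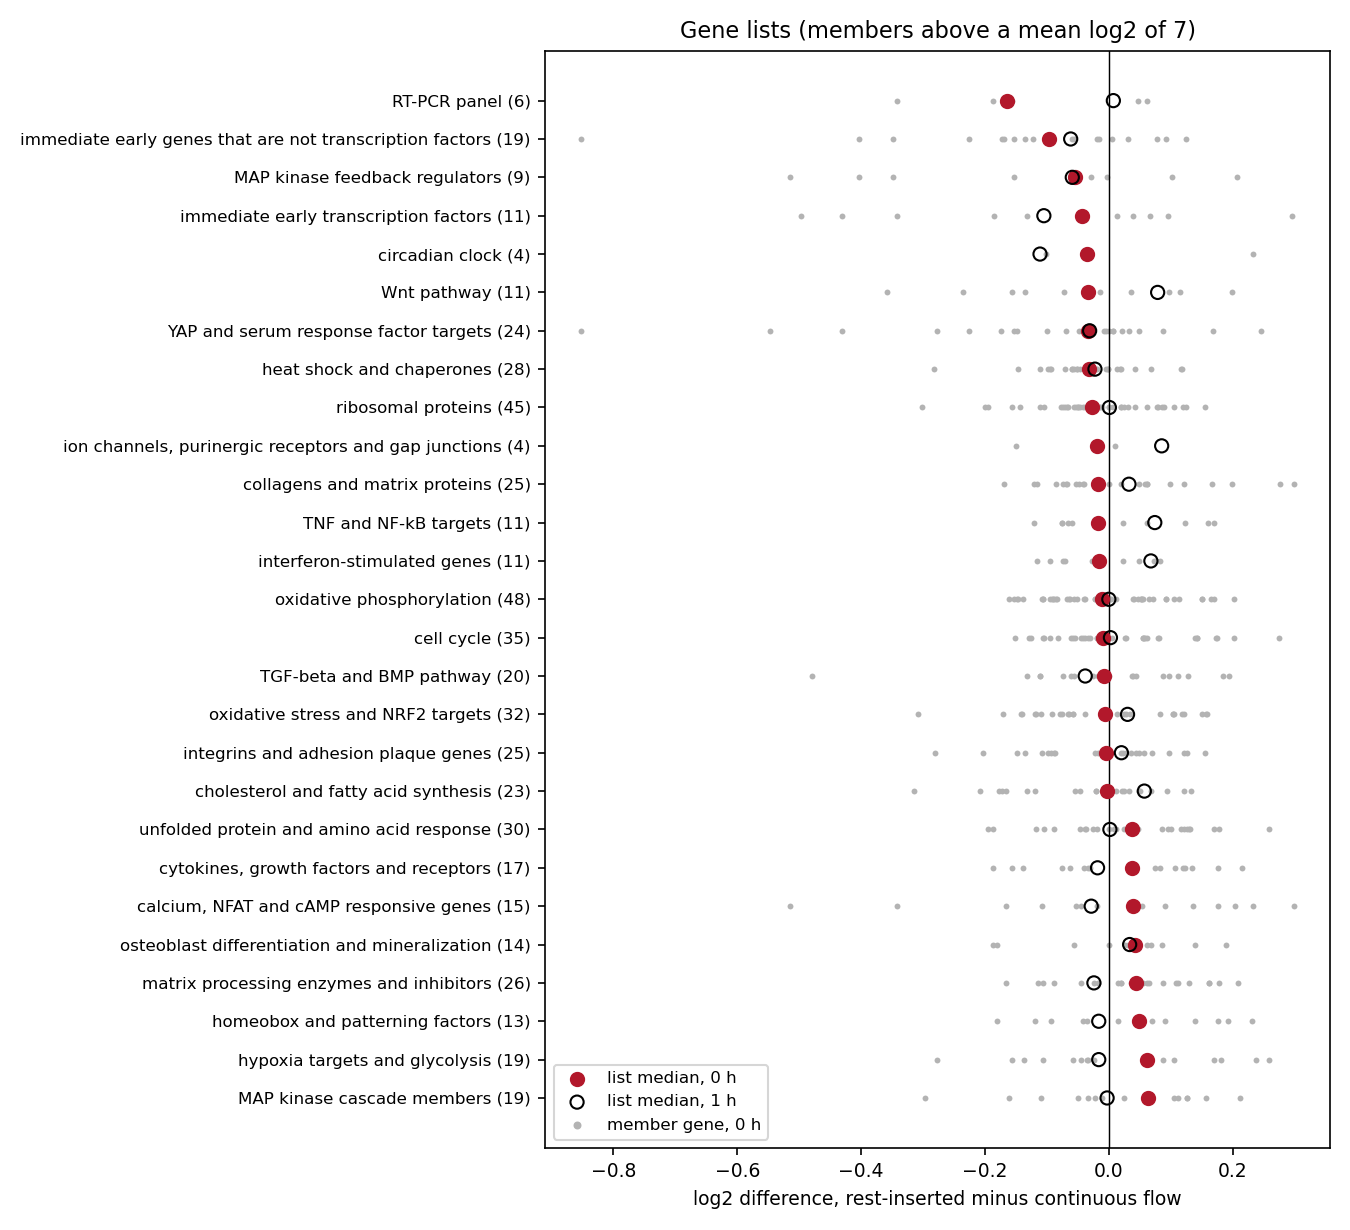
Log2 difference, rest-inserted minus continuous flow (horizontal axis), for the gene lists with the number of members above the filter in brackets, with member genes at 0 h as grey points, the list median at 0 h in red and at 1 h as an open circle. The medians of all lists stay between -0.16 and 0.06 at 0 h, while single members such as Ccn2 at -0.85 reach far beyond them.

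Of the study's panel of 20 genes measured by RT-PCR, 6 were above the filter on the arrays. Beside Rcan1, Tnfrsf11b, which encodes the osteoclast inhibitor osteoprotegerin, had 7.82 in RF0, 8.003 in CF0 and 7.65 in NF0, a log2 difference of -0.19. Hmox1, heme oxygenase 1, had 7.58 in RF0, 7.75 in CF0 and 7.75 in NF0. Vegfa, the angiogenic growth factor, had 7.81 in RF0, 7.96 in CF0 and 7.78 in NF0. Col1a1 and Sp7, a collagen chain and the transcription factor osterix of osteoblasts, differed by 0.06 and 0.05. The study chose this panel for known mechanical or bone-forming roles, and it is no independent evidence. The reference genes Ppia and Actb, with 13.97 and 14.03 in RF0 and 13.90 and 14.002 in CF0, differed by 0.07 and 0.03.

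Agreement between probes of a gene gave a measure of how far single differences can be read. A second probe above the filter existed for 1055 genes, and across them the log2 differences of both probes had a Pearson correlation of 0.215, a description over probes of the same 2 arrays. The SD of the gap between probes was 0.145. Of the 24 such genes with a difference of at least 0.25 by the brightest probe, 18 had the second probe on the same side and 5 had it past 0.25 as well, among them Ccn2 and Ankrd1. Dusp1, Klf2, Errfi1, Egr1, Chpf and Rbck1 have 1 named probe each in the log2 table.

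The labelled cell type was checked by its markers. Of 12 osteoblast markers, 7 had a named probe in the log2 table and 4, Col1a1, Col1a2, Sparc and Sp7, were above the filter. Cdh11 was dim, and so were Alpl and Ibsp, markers of later osteoblasts, at 4.03 and 5.58 in RF0 and 4.18 and 5.64 in CF0. Of 12 cartilage markers, 3 were in the table, Col11a2 near the floor and the other two, Sox9 and Col2a1, bright, at 11.72 and 9.82 in RF0 and 11.65 and 9.80 in CF0. Of 11 adipocyte, 13 muscle and 12 endothelial markers 0 were above the filter, and of 15 macrophage and osteoclast markers 1 was, Ctsk, which differed by 0.04. By the brightest probe, no marker above the filter differed by more than 0.09 between RF0 and CF0. Dimmer probes above the filter gave 0.41 for Sparc, 0.37 for Col2a1 and -0.23 for Sox9. A further Sparc probe gave 0.00 and a further Col2a1 probe 0.04. RF0 had 13878 and CF0 14205 probes detected, of 45281.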

How the data were processed

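RNA of MC3T3-E1 cells was hybridized to 6 Illumina MouseWG-6 bead arrays, each with RNA pooled from 3 experiments. The deposited intensity values were background-subtracted by the authors in GenomeStudio, without normalization. The detection p-value of each probe was deposited beside them. Its RF1 column repeats the signal for most probes and was not used. The log2 values are those the authors deposited after quantile normalization, a floor of 10, log transformation and a filter for detection on any array. Redoing these steps with limma 3.58.1 left a largest gap of 5.0e-08.

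Of 15686 probes, 13393 carried 1 gene symbol in the platform annotation, 8 several and 2285 none. Probes with RIKEN names (211) were left out. Members were genes with a mean log2 above 7. The genes named were the 15 lowest and 15 highest of those detected on both arrays, the RT-PCR genes and up to 5 with the largest absolute difference of each of 35 lists. Members and lists were chosen with earlier results of these data known. With 1 array a group, no test was made. The calculation was tested on simulated data. Scaling, filter, probe choice, offset and fold were varied.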

Additional observations from a re-analysis of the deposited data

Results flagged for a closer look

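Of the named genes, 5 differed between rest-inserted and continuous flow by 0.2 or more in opposite directions at 0 h and at 1 h. The differences between the times were not tested, since each rests on 4 single arrays. Srf had a log2 difference of -0.43 at 0 h and 0.21 at 1 h, and Sfrp2 of -0.36 and 0.24. Pisd-ps3 had 0.37 at 0 h and -0.25 at 1 h, Ciapin1 0.33 and -0.23, and Ppp3ca 0.23 and -0.26. With 1 array a group, no search for samples apart from their group was possible.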

How the results depend on the processing

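No paired analysis was possible because each group has 1 array, and for the same reason no array could be left out in turn. Median scaling, no scaling and cyclic loess left the counts at 0 genes higher and 4 lower by 0.5, with the same 4 genes. Asking for detection on both arrays could change no value, since all 4388 genes pass it. Averaging all probes of a gene gave 1 higher and 4 lower, with 3 genes shared. The added genes, Snrpg and Map4k4, named after their values were seen, each owe this to a second probe near the signal floor. Their brightest probes gave -0.10 and -0.01. With a mean log2 above 8, and with 50 added to the signals in place of the floor, 0 genes were higher and 2 were lower, Ccn2 and Ankrd1. Without a filter on intensity 226 were higher and 271 lower. At a log2 difference of 1, 0 were higher and 0 lower, and at 0.25, added after seeing the data, 70 and 81. The median absolute difference was 0.0691, between 0.0609 and 0.07 under the alternatives that keep a filter on intensity and 0.102 without one. Under the alternatives Ccn2 lay between -0.88 and -0.84, Ankrd1 between -0.57 and -0.53, Dusp1 between -0.53 and -0.44 and Cd80 between -0.58 and -0.44. Of 1136 values of named genes, 1124 moved by less than the SD over genes and 12 by more. Many of the 1124 could not move, because a change in the detection or intensity filter leaves the value of a gene as it was. Of the genes past 0.5, 0 changed sign. Of 152 named genes 7 did so under some alternative, Ogn, Serpinh1, Pfkl, Rps19, Csnk1e, Sox9 and Col2a1, each with a difference of at most 0.18 in size. Of 256 list medians 35 moved by more than their own spread. What limits every value is the single array a condition, and below a log2 intensity of 8 the wider scatter.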

Other observations

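Of the 945 genes with a mean log2 intensity of 10 or above, 7 were lower and 2 higher in RF0 by 0.25 or more. Both are smaller shares than the 1.85% and 1.6% of all genes. Beside Ccn2, Ankrd1, Rpl7a and Cav1, the lower ones were Csrp1, a LIM protein of actin filaments, with 10.93 in RF0, 11.21 in CF0 and 10.93 in NF0, Dpy30, a subunit of histone methyltransferases, and Edf1, a transcriptional coactivator. Their log2 differences were -0.28 for Csrp1, -0.32 for Dpy30 and -0.27 for Edf1, and these genes were named after their values were seen. A second Dpy30 probe gave -0.04. The 2 higher ones were Hsp90b1 at 0.26 and Tomm6, a subunit of the mitochondrial import pore, at 0.26, whose second probe gave 0.12.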
